A study of Mus musculus with 7 samples.

Results

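Across the 7 libraries, 10 genes of estrogen signalling were followed: the receptors Esr1, Esr2 and Gper1, the related orphan receptor Esrra, the coregulators Nrip1, Ncoa1, Ncoa2 and Ncoa3, and the estrogen targets Greb1 and Pgr. They were taken as a list of names, by a rule that uses no measured value but was set with earlier results of these data known. Each of the 10 symbols matched exactly 1 Ensembl gene among the 52636 rows of the count table. Tamoxifen, which was used to switch on the ERK pathway, is itself an estrogen receptor ligand, and these genes were compared to look for a direct effect of the drug.

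The samples were inner cell masses (ICMs) of mouse blastocysts of the genotype Sox2Cre;CRAFR26, in which the Sox2 promoter drives Cre and the construct allows ERK signalling to be switched on. Embryos flushed at embryonic day 2.5 spent 24 h in culture with 250 nM PD173074, an FGF receptor inhibitor, in both groups. Vehicle libraries (3, ethanol for 4 h, time label 0 h) were compared with 4 tamoxifen libraries (250 nM 4-hydroxytamoxifen for 4 h). Each came from a pool of 10 ICMs isolated by immunosurgery, meant to remove the trophectoderm, and was labelled epiblast of embryonic day 3.5. The mouse lines went back to 2 embryonic stem cell clones, 4 and 8, and 1 vehicle sample was left out by the authors at quality control. The vehicle libraries were clone4_1, clone4_2 and clone8_1, and the tamoxifen libraries clone4_1, clone4_2, clone8_1 and clone8_2. All embryos carried the construct, and no embryo without it was given tamoxifen, so an action of the drug itself and an action of ERK cannot be told apart.

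Estrogen receptors are ligand-activated transcription factors that bind DNA as dimers at palindromic elements. Helix movement on ligand binding opens a surface for coactivators of the SRC family (Ncoa1, Ncoa2, Ncoa3), which recruit histone acetyltransferases, and Nrip1 competes for that surface as a corepressor. Tamoxifen places the helix differently, and its effect ranges from antagonist to partial agonist with the tissue and the coregulators present. Tamoxifen-inducible kinases are usually fusions to a mutated hormone-binding domain of the receptor that responds to tamoxifen and little to estradiol, with the activation controlled on the protein and not on the transcript.

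Total counts ranged from 22981498 to 42294719 per library, and 3 counts, the limit that a count of 0 allows, correspond to 0.0710 to 0.129 CPM (the count relative to the library's total, scaled by TMM factors). These limits cover counting error only, since the libraries were amplified without molecular identifiers. Naive epiblast markers (10 genes, Sox2 and Nanog among them) were all detected, and their levels summed to 1678 to 2058 CPM with vehicle and 1734 to 2216 CPM with tamoxifen. Trophectoderm markers (10 genes) were also all detected despite immunosurgery, and summed to 8530 to 11227 CPM with vehicle and 6546 to 9534 CPM with tamoxifen. In bulk pools, fewer cells of a type and less RNA per cell cannot be told apart. Whether construct reads could add to the counts of Esr1 is not given in the sources used here.

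Promoter sequences were examined for the sites these receptors bind, because Greb1, Pgr and Nrip1 are listed genes known to be induced by estrogen. RefSeq promoter windows (GRCm38.p6, 250 bases before to 50 after the gene start) were found for 8 of the 10 genes, 11 windows in all, and none for Ncoa2 and Ncoa3. The full estrogen response element, GGTCA followed after any 3 bases by TGACC, was in 0 of the 11 windows and in 0.0700% of 32851 windows genome-wide. Its arm GGTCA, searched on both strands (TGACC is its reverse complement) and also part of any full element, was in 5 of the 11 windows, those of Esr1, Esr2, Nrip1 and Greb1, against 40.5% of all windows. The element of the estrogen-related receptors, TCAAGGTCA, was in 0 of the 11 and 0.423% of all windows. The window of Pgr held no GGTCA match. The GGTCA matches in Nrip1 and Greb1 are given 5′ to 3′ on the gene's strand, with the matched letters in capitals. They lie on chr16:76373890-76373914 (Nrip1, minus strand), chr12:16800960-16800984 (Greb1, minus strand, first promoter) and, for the second Greb1 promoter, chr12:16757419-16757443 and chr12:16757310-16757334.
Nrip1: agtcctgttgGGTCAgatccttcct
Greb1 first promoter: aagcaacaaaTGACCtctgtccccg
Greb1 second promoter, distal: ctaccaggcgGGTCActggggattg
Greb1 second promoter, proximal: tttcaggaagGGTCActtatggtgg
The match in Nrip1 begins 77 bases before the gene start, and that in the first Greb1 promoter 88 bases before it. A match describes the letters of the window and is not evidence of binding. At genome-wide shares of 0.0700% and 0.423%, 0 of 11 windows was all but given in advance. That absence therefore says nothing particular about these genes, and sequence outside the windows was not searched.

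The ligand-binding receptors were scarce in these ICM pools, whereas the coactivator Ncoa3 was abundant. The pools also held trophectoderm marker transcripts, and the part of each cell type in these levels was not tested. Per length, in CPM per kilobase of exon averaged over the 7 libraries, Ncoa3 stood at 38.8 ± 4.55 (SD, n = 7), higher than 89.2% of the 16217 tested genes with an annotated length. Esrra (1.69 ± 0.461), Ncoa1 (1.49 ± 0.181), Nrip1 (1.47 ± 0.359) and Ncoa2 (1.02 ± 0.237) followed (SD, n = 7), below the median tested gene at 2.49. Esr1 was at 0.163 ± 0.127 (SD, n = 7), with 9.80% of tested genes lower, and Greb1 at 0.0525 ± 0.0345 (SD, n = 7). Gper1 (0.0389), Esr2 (0.0295) and Pgr (0.0010) came last.

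Ncoa3 exceeded Esrra 23.0-fold per length with no overlap between their libraries, and 13.7-fold when the longest transcript was the length. Ncoa2 likewise exceeded Esr1, by 6.24-fold, in all 7 libraries. The levels of Esrra, Ncoa1, Nrip1 and Ncoa2 overlapped between neighbours, as did those of Esr1, Greb1, Gper1, Esr2 and Pgr. The order among Ncoa1, Nrip1 and Ncoa2 depended on the length used: with the longest transcript in place of all exons, Nrip1 came to 2.13, Ncoa2 to 1.95 and Ncoa1 to 1.75 CPM per kilobase. With that length Esr1 came to 0.352 and kept its rank of 6. Relative to its mean, Esr1 also varied most among the 7 genes that passed the expression filter, with a coefficient of variation of CPM over the 7 libraries of 77.7%, followed by Greb1 (65.6%), while Ncoa1 (12.1%) and Ncoa3 (11.7%) varied least.

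**Figure D1:**
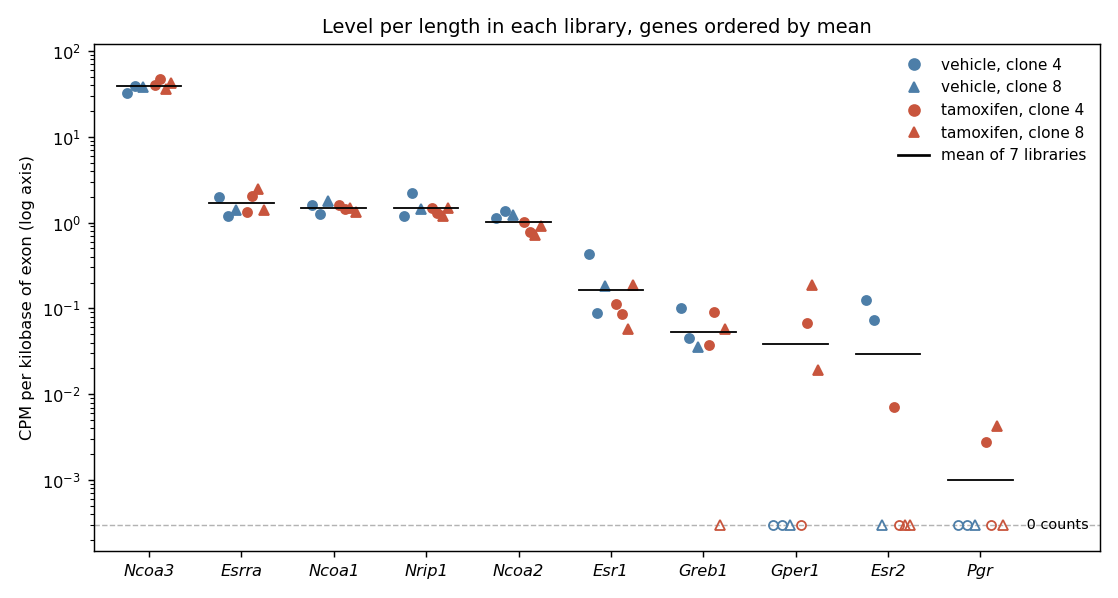
CPM per kilobase of exon (log axis) of the 10 genes in each library, ordered by mean; blue points are vehicle, red points tamoxifen, circles clone 4, triangles clone 8, black lines the mean of 7 libraries, and open symbols on the dashed line libraries with 0 counts. Ncoa3 (38.8) stands apart from all others, and Gper1, Esr2 and Pgr are at 0 in most libraries.

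At an adjusted p under 0.05, tamoxifen changed 0 of the 7 genes that passed the expression filter (Esr1, Esrra, Nrip1, Greb1, Ncoa1, Ncoa2, Ncoa3), by the quasi-likelihood test of edgeR with p-values adjusted by Benjamini-Hochberg over the 16248 genes tested. The background was 0% of genes called, with the smallest adjusted p at 0.794. At an unadjusted p under 0.05 there was 1 of the 7, Ncoa2, against 5.97% of all genes. DESeq2 called 0 of the 7 as well, and 4 of all genes. Of the 7, 5 were lower with tamoxifen, where 48.3% of all genes were, and their median log2 fold change was -0.24 against 0.019 over all genes. Esr2, Gper1 and Pgr did not pass the filter. The p-values measure the spread between libraries, which the labels do not tie to separate litters.

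**Figure D2:**
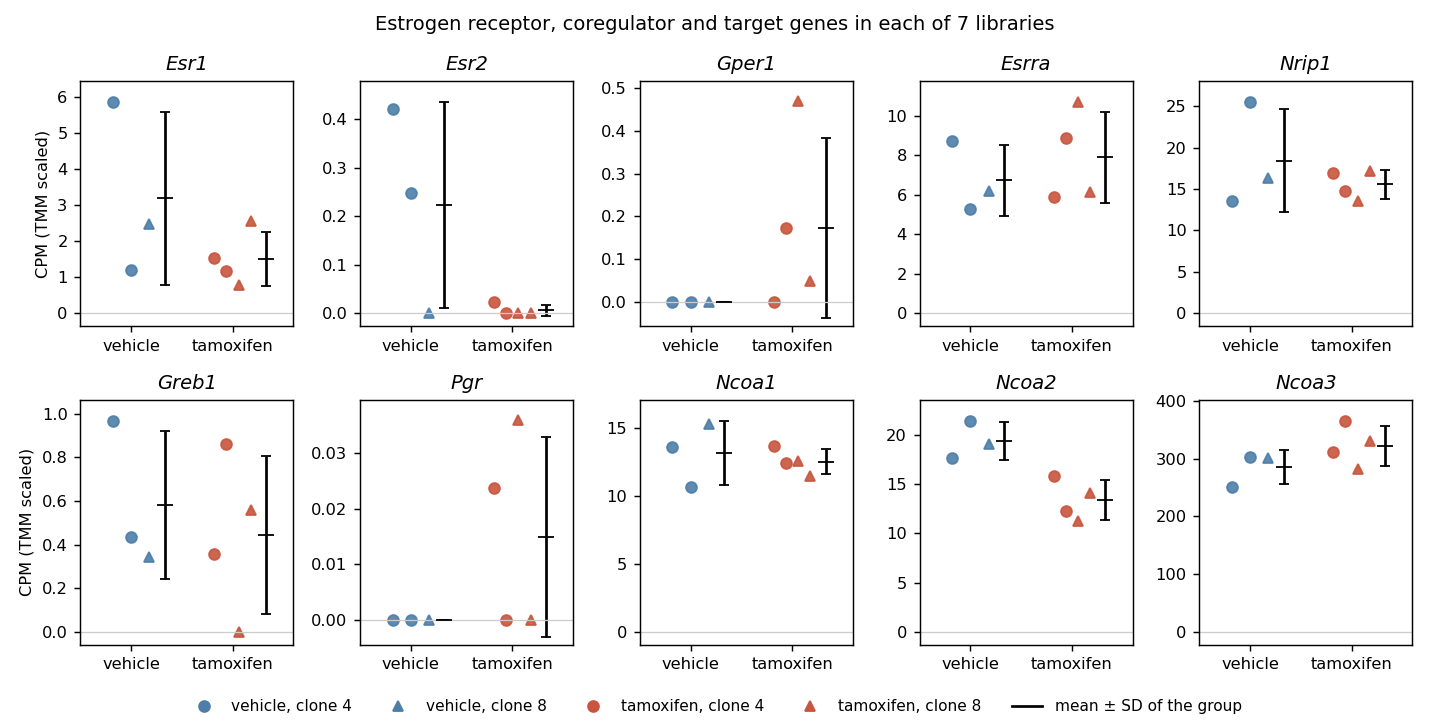
CPM (TMM scaled, linear axes with a separate scale per gene) of the 10 genes in each of 7 libraries; blue is vehicle, red tamoxifen, circles clone 4, triangles clone 8, and the bars to the right of the points the group mean ± SD. In the panel of Ncoa2 all 4 tamoxifen libraries (11.2 to 15.8) lie below the 3 vehicle libraries (17.6 to 21.4), and in every other panel the groups overlap or meet at 0.

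Esr1, the nuclear receptor that binds estradiol and tamoxifen (ENSMUSG00000019768, chromosome 10, 4611593 to 5005614, plus strand of GRCm38), was counted in each library. Vehicle clone4_1, clone4_2 and clone8_1 held 5.86, 1.21 and 2.49 CPM, from 236, 39 and 102 counts. Tamoxifen clone4_1, clone4_2, clone8_1 and clone8_2 held 1.54, 1.16, 0.795 and 2.55 CPM, from 65, 27, 22 and 105 counts. Vehicle clone4_1 was the highest of all, and the other 2 vehicle libraries lay within the range of the tamoxifen libraries. The log2 fold change of -1.07 ± 0.61 (SE; 95% interval -2.43 to 0.29) did not pass (unadjusted p = 0.111, adjusted p = 0.798, edgeR). Without vehicle clone4_1 it was -0.31. That library also had the highest summed trophectoderm marker level (11227 CPM). The order was not shared by all libraries. Tamoxifen clone8_1, with a marker sum of 9534 CPM, had the lowest Esr1 level. Tamoxifen clone8_2, with the lowest sum (6546 CPM), had 2.55 CPM of Esr1. The part of those cells in the Esr1 level was not tested.

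Esr2, the second nuclear estrogen receptor (ENSMUSG00000021055, chromosome 12, 76120419 to 76177259, minus strand), was near the detection limit. Vehicle clone4_1, clone4_2 and clone8_1 held 17, 8 and 0 counts. In the tamoxifen libraries there was 1 count in clone4_1 and 0 in the other 3. The counts thus lay almost wholly in the vehicle libraries of clone 4, and the vehicle library of clone 8 was at 0 like those of tamoxifen. Gper1, a membrane receptor coupled to G proteins that also responds to tamoxifen (ENSMUSG00000053647, chromosome 5, 139423151 to 139427800, plus strand), showed 0 counts in each vehicle library. Tamoxifen clone4_1, clone4_2, clone8_1 and clone8_2 held 0, 4, 13 and 2 counts, of which 13 equal 0.469 CPM. In a fit without the expression filter both genes had an unadjusted p under 0.05 (Esr2 0.0269, Gper1 0.0222) and an adjusted p of 0.712 in edgeR, where 6.36% of 28364 genes had an unadjusted p under 0.05, and at such counts a fold change is not given.

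Esrra, which binds no known estrogen and drives genes of mitochondrial metabolism (ENSMUSG00000024955, chromosome 19, 6910977 to 6921813, minus strand), was at 8.71, 5.26 and 6.21 CPM in vehicle clone4_1, clone4_2 and clone8_1. It was at 5.87, 8.88, 10.7 and 6.17 CPM in tamoxifen clone4_1, clone4_2, clone8_1 and clone8_2. The groups overlapped, and the highest value was that of tamoxifen clone8_1. Its log2 fold change was 0.23 ± 0.33 (SE; 95% interval -0.51 to 0.97; adjusted p = 0.890, edgeR), and -0.011 without both clone8_1 libraries. Esrra shares 73 exonic bp with Trmt112 on the other strand, a gene with 1412 to 4150 counts per library, and the strand setting of the counting is not given in the sources used here.

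Among the SRC coactivators only Ncoa2 had groups that did not overlap, and whether the changes of these genes differ from each other was not tested. Ncoa2 (ENSMUSG00000005886, chromosome 1, 13139105 to 13374083, minus strand) was at 17.6, 21.4 and 19.1 CPM in vehicle clone4_1, clone4_2 and clone8_1, from 710, 688 and 784 counts. It was at 15.8, 12.3, 11.2 and 14.1 CPM in tamoxifen clone4_1, clone4_2, clone8_1 and clone8_2, from 668, 285, 310 and 580 counts. Every tamoxifen library lay below every vehicle library, although clone 8 had only a single vehicle library. This made 1 of 7 genes apart in the lower direction, where 4.74% of all tested genes were, and 8.45% in either direction.

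The log2 fold change of Ncoa2 was -0.54 ± 0.22 (SE; 95% interval -1.02 to -0.051), with means of 19.4 ± 1.92 CPM (SD, n = 3) and 13.3 ± 2.03 CPM (SD, n = 4). The difference did not pass (unadjusted p = 0.0335, adjusted p = 0.794, edgeR). The two-sided exact permutation p of its log2 CPM was 0.0571, where the smallest p for 3 against 4 libraries is 0.0286. The change kept its sign in each of the 16 alternatives run, between -0.65 and -0.46, with an unadjusted p from 0.0196 to 0.125 and an adjusted p, where one was computed, from 0.544 to 0.961. Since the groups did not overlap and the alternatives reuse these libraries, the sign was all but fixed in advance. All 10 trophectoderm markers were lower with tamoxifen as well (median log2 fold change -0.33). Their summed level in tamoxifen clone4_1, clone4_2 and clone8_2 (6546 to 7938 CPM) lay below that of every vehicle library. Tamoxifen clone8_1, with the lowest Ncoa2 level, was at 9534 CPM, above vehicle clone4_2 (8530 CPM) and clone8_1 (9022 CPM). The part of those cells in the Ncoa2 level was not tested.

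Ncoa3 (ENSMUSG00000027678, chromosome 2, 165992636 to 166073242, plus strand), which in embryonic stem cells is known as a coactivator of Esrrb, was at 251, 303 and 301 CPM in vehicle clone4_1, clone4_2 and clone8_1. It was at 312, 366, 282 and 330 CPM in tamoxifen clone4_1, clone4_2, clone8_1 and clone8_2. The groups overlapped through tamoxifen clone8_1, and the lowest value was that of vehicle clone4_1. For Ncoa3 the log2 fold change was 0.18 ± 0.16 (SE; 95% interval -0.18 to 0.53; adjusted p = 0.836, edgeR). With 7811 to 13581 counts per library, counting error was small beside the spread between libraries. Its exons share 154 bp with Sulf2 on the other strand, which had 918 to 1775 counts.

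Ncoa1 (ENSMUSG00000020647, chromosome 12, 4247362 to 4477182, minus strand) varied little. Vehicle clone4_1, clone4_2 and clone8_1 were at 13.6, 10.7 and 15.3 CPM. Tamoxifen clone4_1, clone4_2, clone8_1 and clone8_2 were at 13.7, 12.4, 12.6 and 11.5 CPM, within the range of the vehicle libraries. Its log2 fold change was -0.075 ± 0.23 (SE; 95% interval -0.59 to 0.44; adjusted p = 0.951, edgeR). It turned positive in 3 alternatives, among them the fit without vehicle clone8_1 (0.037).

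Per length, Ncoa3 made up most of the SRC coactivator transcripts in each library. Its share of the sum of the 3 genes lay between 92.1% and 93.6% with vehicle and between 93.8% and 95.4% with tamoxifen, and with the longest transcript as the length it was 89.3% to 90.8% and 91.6% to 93.8%. The ratio of Ncoa3 to Ncoa2 was 28.2, 28.0 and 31.3 in vehicle clone4_1, clone4_2 and clone8_1, against 39.0, 59.0, 49.9 and 46.4 in tamoxifen clone4_1, clone4_2, clone8_1 and clone8_2. With the longest transcript as the length the same ratio was lower, between 15.4 and 17.1 with vehicle and between 21.4 and 32.3 with tamoxifen. These shares and ratios were formed after the values of Ncoa2 had been seen and were not tested.

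Nrip1, the corepressor that is also induced by estrogen in many tissues (ENSMUSG00000048490, chromosome 16, 76287400 to 76373827, minus strand), was at 13.5, 25.5 and 16.3 CPM in vehicle clone4_1, clone4_2 and clone8_1. It was at 17.0, 14.7, 13.5 and 17.1 CPM in tamoxifen clone4_1, clone4_2, clone8_1 and clone8_2. Vehicle clone4_2 was the only library above 17.1 CPM. With a log2 fold change of -0.24 ± 0.26 (SE; 95% interval -0.82 to 0.34; adjusted p = 0.850, edgeR) Nrip1 did not pass, and without vehicle clone4_2 the value was 0.062.

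Greb1, a chromatin-bound estrogen receptor cofactor and a standard readout of receptor activity in breast cancer cells (ENSMUSG00000036523, chromosome 12, 16670615 to 16800886, minus strand), was low. Vehicle clone4_1, clone4_2 and clone8_1 held 39, 14 and 14 counts, or 0.968, 0.436 and 0.341 CPM. Tamoxifen clone4_1, clone4_2, clone8_1 and clone8_2 held 15, 20, 0 and 23 counts, or 0.355, 0.862, 0 and 0.558 CPM. The groups overlapped, and tamoxifen clone8_1 was the single library at 0. The log2 fold change of -0.39 ± 1.09 (SE; 95% interval -2.83 to 2.04; adjusted p = 0.947, edgeR) leaves a wide range, and it was 0.18 without vehicle clone4_1 and 0.015 without tamoxifen clone8_1.

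Pgr, the progesterone receptor and the classic estrogen-induced gene of the uterus and breast (ENSMUSG00000031870, chromosome 9, 8899833 to 8968611, plus strand), had 2 counts in all. They were 1 each in tamoxifen clone4_1 and clone8_1, and the other 5 libraries were at 0. At 3 counts per library, Pgr was at or under the detection limit in both groups, so a difference was not detectable at this depth.

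**Figure D3:**
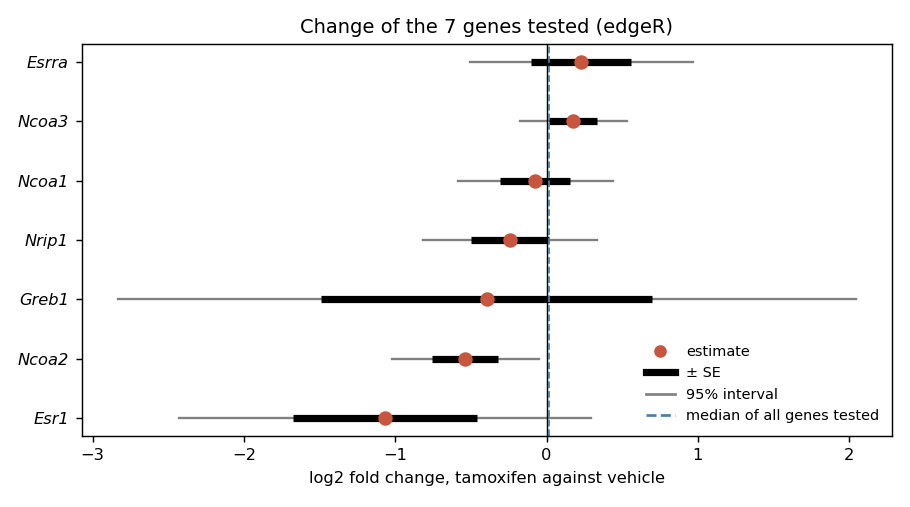
Log2 fold change of the 7 genes tested, tamoxifen against vehicle; red points are the edgeR estimates, thick bars ± SE, thin lines the 95% interval, and the dashed line the median of all genes tested (0.019). The interval of Ncoa2 (-1.02 to -0.051) does not reach 0, before adjustment for the number of genes, and that of Greb1 is the widest.

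No difference between the clones passed the test in these genes, at a precision that leaves wide intervals for the scarce ones (95% interval -1.58 to 1.56 for Esr1 and -3.69 to 1.58 for Greb1 on the log2 scale). With condition in the model, 0 of the 7 differed between clone 8 and clone 4 at an adjusted p under 0.05 (background 0%) or at an unadjusted p under 0.05 (background 3.13%), and DESeq2 called 0 of the 7. The estimates, clone 8 minus clone 4, ran from -1.06 ± 1.17 (SE) for Greb1 to 0.068 ± 0.24 (SE) for Ncoa1. The tamoxifen effect differed between clones in 0 of the 7, where 3.16% of all genes were called, and that term rests on the single vehicle library of clone 8. For Ncoa2 the effect in clone 8 minus that in clone 4 was -0.12 ± 0.48 (SE; adjusted p = 0.938, edgeR), and for Esr1 it was 0.82 ± 1.35 (SE; adjusted p = 0.828, edgeR).

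Further genes of the pathway were read from fixed lists, with 0 called in each at an adjusted p under 0.05 in edgeR. Among other steroid and estrogen-related receptors, 2 of 5 were tested. Esrrb, the orphan receptor that sustains naive pluripotency, was at 42.9 to 59.7 CPM in vehicle and 57.1 to 76.9 CPM in tamoxifen libraries (log2 fold change 0.37 ± 0.18, SE; unadjusted p = 0.0696, edgeR). The glucocorticoid receptor Nr3c1 was at 1.15 to 3.36 and 1.19 to 1.70 CPM. Esrrg had 0 counts in each library, and Nr3c2 did not pass the filter.

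Of 20 classic estrogen targets, 11 were tested, 5 higher and 6 lower (median log2 fold change -0.16), and 2 had an unadjusted p under 0.05, both lower, where 5.97% of all genes had such a p and 3.28% were lower with it. Rasd1, a small GTPase also induced by glucocorticoids, was at 12.0 to 23.1 CPM in vehicle and 5.22 to 10.7 CPM in tamoxifen libraries, which is -1.37 ± 0.33 on the log2 scale (SE; unadjusted p = 0.00206, adjusted p = 0.794, edgeR). Pdzk1, a scaffold protein of epithelial membranes, was at 20.6 to 23.0 and 13.0 to 15.8 CPM, which is -0.60 ± 0.20 on the log2 scale (SE; unadjusted p = 0.0131, adjusted p = 0.794, edgeR). For both genes the groups did not overlap, as for 4.74% of all tested genes in that direction. Igfbp4, an insulin-like growth factor binding protein, named after its values were seen, did not overlap in the other direction (0.244 to 0.620 CPM with vehicle and 0.647 to 0.758 CPM with tamoxifen), as for 3.71% of all genes. Rasd1, Pdzk1 and Igfbp4 did not pass the adjusted threshold. The direction of Rasd1 and Pdzk1 is that of the trophectoderm markers, whose part was not tested. Cited2 was at 1.29 to 4.84 and 0.474 to 3.18 CPM, and the lysosomal protease Ctsd, the target with the highest mean CPM, at 538 to 650.1 and 472 to 606 CPM. The other 9 targets did not pass the filter, among them Tff1, Ltf, Areg and C3, which mark estrogen action in breast or uterus.

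Coregulators outside the SRC family were centred near the median gene. Of 16 coactivators 15 were tested, 6 higher and 9 lower (median log2 fold change -0.040), with 0 at an unadjusted p under 0.05, where 5.97% of all genes were. Ddx5, an RNA helicase that binds the receptor, had the highest mean CPM (940 to 1199 CPM in vehicle, 655 to 944 CPM in tamoxifen libraries). Its paralog Ddx17 was at 116 to 143 and 87.5 to 109.8 CPM, without overlap. The acetyltransferase Kat2b was at 2.78 to 5.54 and 5.10 to 9.18 CPM. Of 16 corepressors 14 were tested, 5 higher and 9 lower (median log2 fold change -0.058), again with 0 at an unadjusted p under 0.05. The prohibitin Phb2, a receptor-binding repressor, was at 509 to 701 and 541 to 628 CPM. Sin3a, a scaffold of histone deacetylase complexes, was at 41.4 to 54.1 and 29.5 to 41.3 CPM, without overlap, Mta1 at 7.39 to 11.6 and 9.88 to 31.1 CPM, and Tbl1x averaged 48.9 ± 14.5 (SD, n = 3) and 35.6 ± 8.59 CPM (SD, n = 4). The groups lay apart in the lower direction for 1 of 15 coactivators and 2 of 14 corepressors, where 4.74% of all tested genes did. In the higher direction it was 0 in both lists, against 3.71% of all tested genes.

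Chaperones that hold steroid receptors in a ligand-ready form were all tested, with 4 of 12 higher and 8 lower (median log2 fold change -0.089). Hspa8, with the highest mean CPM when all 7 libraries are averaged, was at 4603 to 6749 CPM in vehicle and 3544 to 5304 CPM in tamoxifen libraries. The cochaperone Ptges3 was at 565 to 839 and 792 to 1036 CPM (log2 fold change 0.46 ± 0.18, SE; unadjusted p = 0.0289, adjusted p = 0.794, edgeR), with overlapping groups. Fkbp5 was at 9.33 to 11.3 and 10.7 to 18.4 CPM. Of 12 genes that bind or handle tamoxifen outside the receptors, 8 were tested, 2 higher and 6 lower (median log2 fold change -0.27). At an unadjusted p under 0.05 there were 0, against 5.97% of all genes. Ebp and Dhcr7, sterol enzymes that form the antiestrogen binding site, averaged 215 ± 13.6 and 115 ± 19.3 CPM with vehicle (SD, n = 3) and 231 ± 31.9 and 95.3 ± 4.21 CPM with tamoxifen (SD, n = 4). The drug exporter Abcb1a was at 3.80 to 5.79 and 1.04 to 3.98 CPM.

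For comparison, all 10 ERK feedback genes were tested, 7 higher and 3 lower (median log2 fold change 0.29). Spry2, an inhibitor of receptor tyrosine kinase signalling, had the smallest p of the list at 45.4 to 82.5 CPM in vehicle and 109 to 129 CPM in tamoxifen libraries (unadjusted p = 0.00229, adjusted p = 0.794, edgeR). Etv4 was at 0.0992 to 0.374 and 0.0862 to 1.77 CPM, and Etv5 at 87.4 to 108 and 92.5 to 174 CPM. The difference between this list and the estrogen genes was not tested. Of the cell type markers, 8 of 10 naive epiblast genes were higher and 2 lower (1 higher at an unadjusted p under 0.05), 6 of 9 tested primitive endoderm genes were higher and 3 lower (2 higher), and 10 of 10 trophectoderm genes were lower (3 lower). Their median log2 fold changes were 0.41, 0.49 and -0.33. Over all genes 51.7% were higher and 48.3% lower, 2.69% were higher and 3.28% lower at an unadjusted p under 0.05.

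**Figure D4:**
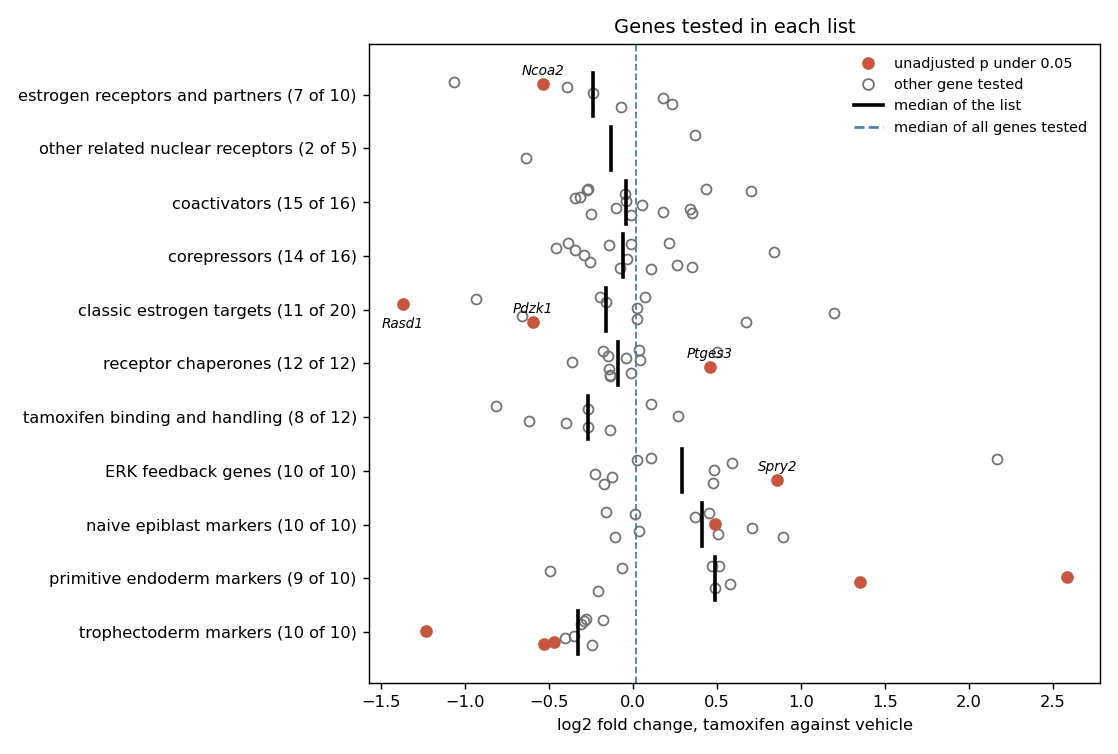
Log2 fold change, tamoxifen against vehicle, of each tested gene in 11 lists, with the number tested of the number listed; red points have an unadjusted p under 0.05, black bars are list medians and the dashed line the median of all genes tested; red points are named outside the marker lists. The medians run from -0.33 (trophectoderm markers) to 0.49 (primitive endoderm markers), with 0.41 for naive epiblast markers and 0.29 for ERK feedback genes, and Ncoa2 is the only red point among the 7 estrogen genes.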

How the data were processed

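The authors deposited raw counts per Ensembl gene, 1 column per library, from RNA of pooled ICMs. The build mm10, bcl2fastq 2.19.1 and STAR 2.5.3a are named per the submitters' processing notes; the counting program, annotation, strand and duplicate handling are not given in the sources used here. Symbols and lengths came from GENCODE M21 (GRCm38, the same build as mm10), which matched 52403 of 52636 rows, and 130 of 130 listed symbols. All genes were fitted in edgeR 4.0.16 (R 4.3.3) with TMM factors, the expression filter by group and condition as the only term, and the members' rows were read from that fit. P-values were adjusted over 16248 genes and called under 0.05. Log2 CPM used a prior count of 2. DESeq2 1.42.0 was an alternative. The fits were tested on simulated data. A chi-square test of each pair of libraries over genes gave at least 23.9 per degree of freedom, so none was a repeat of another. Named genes are the 10 members and of each list the 3 with the smallest p and the most abundant; a few that this rule names are not reported here. Others (Sox2 and Nanog as markers, genes below the filter) were named after their values were seen. Members and lists were chosen with earlier results of these data known.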

Additional observations from a re-analysis of the deposited data

Results flagged for a closer look

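Esr2 in tamoxifen clone4_1, at 0.0237 CPM, stood apart from the other 3 tamoxifen libraries, which were at 0. The value is 1 count, below the 3 counts that a count of 0 allows. A group with 1 count and otherwise 0 is always picked out by the gap criterion used, so no chance rate applies to this flag.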

How the results depend on the processing

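Under each of the 15 alternatives of the tamoxifen comparison, 0 of the estrogen receptor, coregulator and target genes that were tested were called. All 10 were tested only without an expression filter. It was 8 without both libraries numbered clone8_1, 6 with a mean count of at least 50, and 7 in the others. The other listed genes were not followed under these alternatives. Over all genes DESeq2 called 4, leaving out both libraries numbered clone8_1 gave 2, and leaving out each library in turn gave 0 to 0. With the replicate block the number called was 0 (721 by unadjusted p under 0.05, edgeR) and Ncoa2 changed by -0.58. Same-numbered libraries share a clone, and their deviations were correlated at -0.068 to 0.021, against -0.085 to 0.062 for pairs with different numbers. With so few libraries these correlations cannot show whether a litter or batch was shared. The term for a tamoxifen effect that differed between clones called 514 genes, 1023 with DESeq2 and 991 without an expression filter. In each of these fits it rests on the same single vehicle library of clone 8, and most calls lay in the same direction. These counts therefore cannot show a drug response specific to a clone. Clone 8 against clone 4 gave 13 genes with DESeq2 against 0 in edgeR. Esrra turned to -0.011 and Ncoa1 to 0.039 without both libraries numbered clone8_1, and Ncoa1 to 0.095 in clone 4 alone. Leaving out each library in turn gave -0.43 to 0.062 for Nrip1, -0.91 to 0.18 for Greb1 and -0.21 to 0.037 for Ncoa1. The cause was not tested. Esr1, Ncoa2 and Ncoa3 kept their direction in all 16 alternatives, which reuse the same libraries. For Ncoa2, whose groups did not overlap, the direction could hardly turn. Greb1 could not be fitted under the filter of a mean count of at least 50. Counts were at most 17 per library for Esr2, 13 for Gper1, 1 for Pgr and 39 for Greb1, and the spread of Esr2 and Greb1 between libraries was large beside these counts.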

Other observations

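Nr0b1, a nuclear receptor without a DNA-binding domain that represses other receptors and is expressed in naive pluripotent cells, did not pass the expression filter. Vehicle clone4_1, clone4_2 and clone8_1 held 2, 1 and 1 counts, and tamoxifen clone4_1, clone4_2, clone8_1 and clone8_2 held 25, 26, 4 and 6. The groups do not overlap, the vehicle values are at or under the limit of 3 counts, and the gene was picked after its values were seen, so this is a description with no test. Of the genes that passed the filter, 3.71% lay apart in that direction, and the share among genes below it was not computed.

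The genes whose log2 CPM over the 7 libraries was most like that of Esr1, among 9454 genes with a mean of at least 5 CPM, were Cd55 (Pearson r = 0.981, Spearman rho = 0.929), Gm3604 (r = 0.977, rho = 0.929) and Zfp934 (r = 0.974, rho = 0.857). The 7 points share libraries and depth, and the highest of 9454 values were picked.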
